A study of Mus musculus with 51 samples.

Results

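Neurons store peptides in dense-core granules, and 10 genes that build these granules or process their cargo were followed here: the granins Chga, Chgb, Scg2, Scg3 and Vgf, the chaperone gene Scg5, the prohormone convertase genes Pcsk1 and Pcsk2, the carboxypeptidase gene Cpe and the amidating enzyme gene Pam. They were chosen by name, but with earlier results of these data known. Counts of the 10 set against shares of all genes below are therefore descriptions only. All 10 were among the 24564 genes of the deposited count table. RNA was read by Smart-seq2 in neurons sorted from adult mouse midbrain, in 51 libraries of 1 animal each. The DatCre strain, in which the dopamine transporter gene directs the recombinase, gave midbrain dopaminergic (mDA) neurons, and the SertCre line, driven by the serotonin transporter gene, gave serotonergic (5HT) neurons. In each line, animals labelled wt were set against animals labelled as mutants of Eed, a core subunit of Polycomb repressive complex 2 (PRC2), which methylates lysine 27 of histone H3. The mDA groups held 9 wt and 10 mutant animals at 4 months of age and 8 and 8 at 8 months, in 3 sequencing sets, and the 5HT groups held 4 animals each, in 1 set. The labels do not say whether wt animals carried Cre.

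Granins are acidic proteins that condense in the trans-Golgi network and drive the budding of granules, and several of them are also cut into peptides. Inside the granule the convertases PC1/3 (Pcsk1) and PC2 (Pcsk2) cut precursors after paired basic residues, carboxypeptidase E (Cpe) trims the basic residues left behind, and the enzyme encoded by Pam amidates the end of many peptides. The 7B2 protein (Scg5) is needed for PC2 to become active. In dopaminergic and serotonergic neurons these granules carry co-transmitter peptides and growth factors beside the monoamine.

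Several of these genes are known targets of cAMP signalling, so their promoters were read for the cAMP response element, to which factors of the CREB family bind. RefSeq promoters of GRCm38.p6, from 250 bases before to 50 bases after the start, were matched for 8 of the 10 genes, all but Vgf and Cpe. The palindrome TGACGTCA was present in Scg2, Chgb and Pcsk1, against 1.79% of all 32851 promoters of the same length. Its core TGACG, searched on both strands and contained in the palindrome, was present in 7 of 8, all but Pam, against 20.8% of all promoters. Both motifs contain the pair CG. The promoters of the 8 genes held 9 (Scg5) to 38 (Pam) such pairs, against a median of 7 over all promoters. The shares were not corrected for this. The 3 palindromes are printed with their flanks. Of the cores outside a palindrome only that of Chga is printed, a gene whose mDA groups did not overlap at 8 months. Those of Scg3, Scg5 and Pcsk2 are not printed. The starts are those of the promoter table and differ from those of the GENCODE models used elsewhere: GENCODE starts Chgb at 132781278 and Scg2, on the minus strand, at 79440120, so that these 2 elements lie inside the GENCODE gene models. The elements of Pcsk1 (GENCODE start 75089826) and Chga (102554969) lie before both starts. Capitals mark the element, each line reads 5′ to 3′ on the gene's strand, and a match is a description of the letters only.
Scg2 at chr1:79440076-79440105, minus strand, element starting 68 bases before the start: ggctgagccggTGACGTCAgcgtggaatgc
Chgb at chr2:132781559-132781588, plus strand, 72 bases before: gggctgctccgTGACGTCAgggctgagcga
Pcsk1 at chr13:75089768-75089797, plus strand, 78 bases before: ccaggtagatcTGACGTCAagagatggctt
Chga at chr12:102554885-102554914, plus strand, 44 bases before: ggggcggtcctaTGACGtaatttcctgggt

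Total counts per library ran from 1644460 to 12250492. Levels are CPM, the usual depth-scaled counts, on TMM-scaled library sizes, and the lowest count of any of the 10 genes in any library was 13 (Pcsk1). The sorted cells matched their labels by marker: Th was 601 to 3072 CPM in mDA and 2.98 to 35.8 CPM in 5HT libraries, and Slc6a4 was 0 to 11.1 CPM in mDA and 513 to 3443 CPM in 5HT libraries. The level of Eed over the whole gene was not lower in labelled mutants (mean 23.7 CPM against 14.2 in mDA at 4 months) and checks no label, so every direction rests on the labels. Among the 4-month mDA libraries, 6 stood apart: the 6 female mutants (D186, D187, D192 and D226 in set1, D237 and D238 in set2) had the 6 lowest totals, 1654667 to 3017630 counts against 3500770 to 5337848 in the other 13. At that age set1 paired male wt with female mutant animals, set3 paired female wt with male mutants, and set2 was the 1 set with both sexes of both genotypes. In sorted bulk cells, fewer cells of a type and less RNA per cell cannot be told apart.

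**Figure D1:**
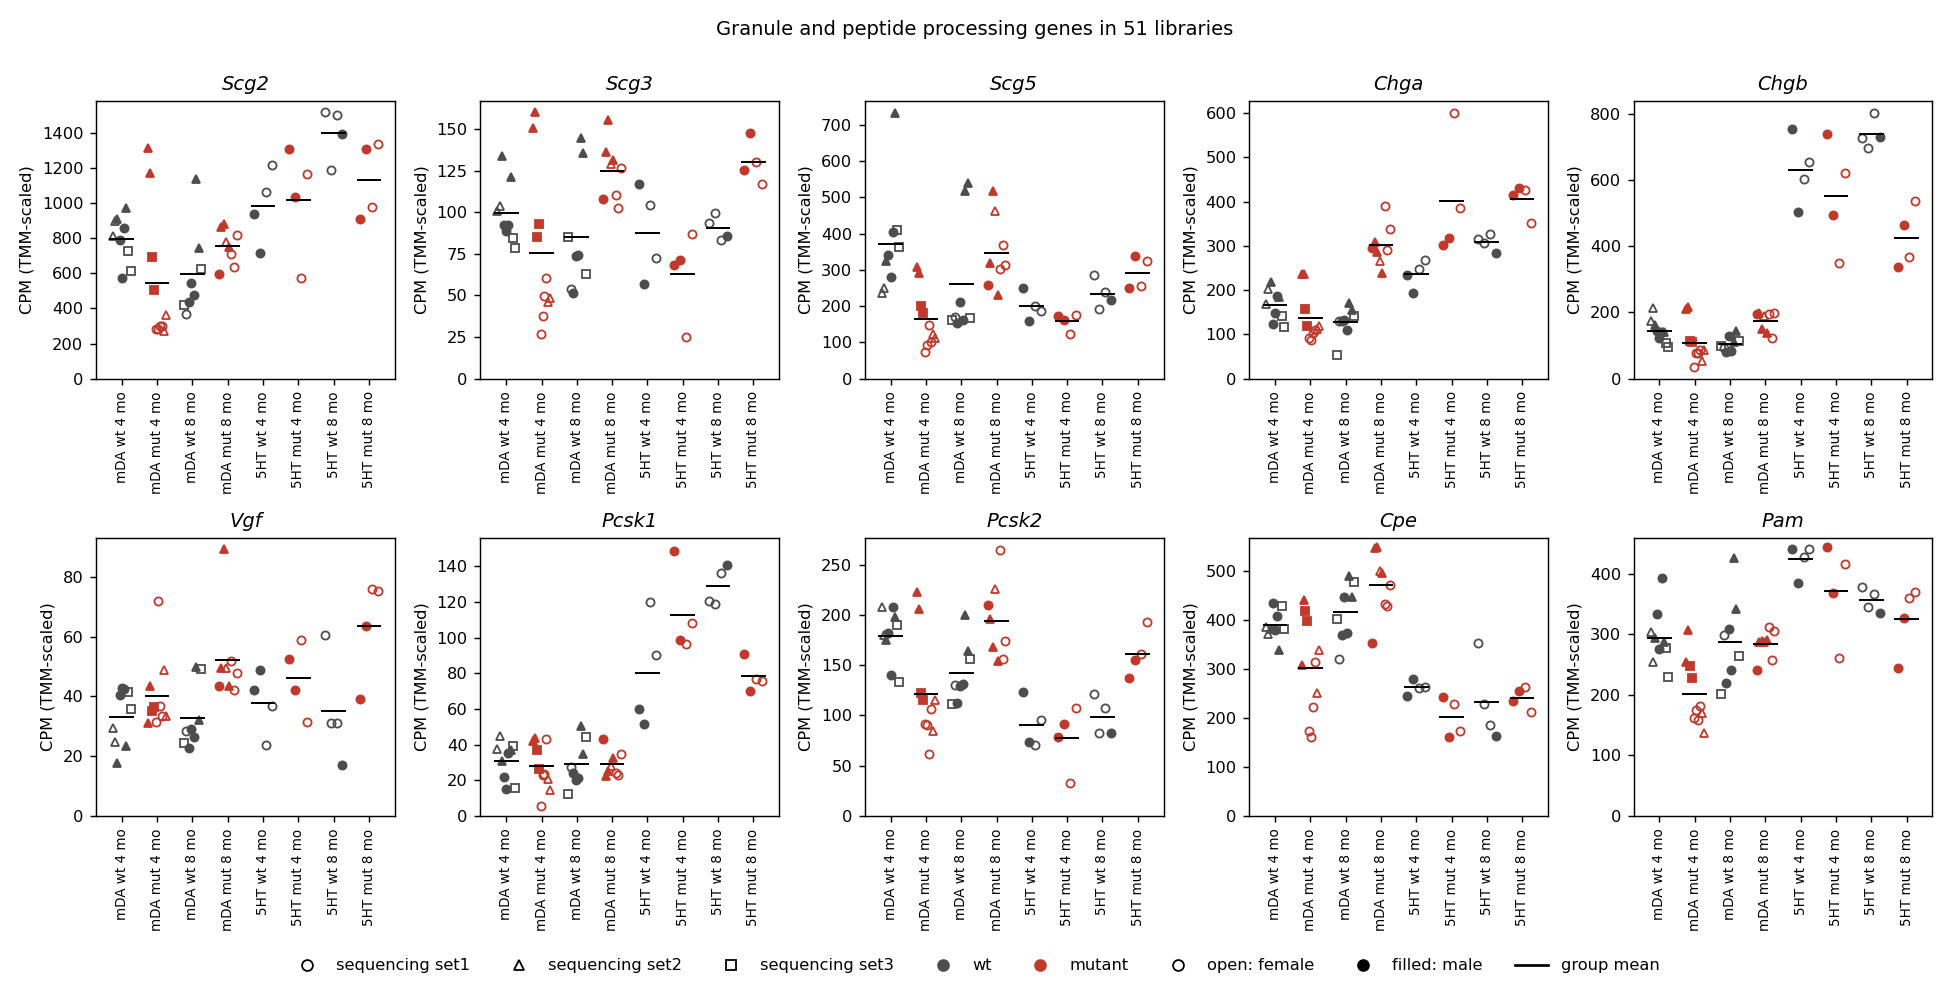
Levels of the 10 genes in all 51 libraries (y axis, CPM on TMM-scaled library sizes, from 0; x axis, the 8 groups). Each point is 1 animal, the shape gives the sequencing set, open points are females, red points are mutants and the bar is the group mean; in Chga at 8 months all 8 mDA mutants (238.01 to 390 CPM) lie above all 8 wt animals (53.4 to 170 CPM).

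In wt neurons the 2 cell types carried the same granule genes in a different balance. Levels between genes are compared per length, as CPM per kb of merged exons. In 4-month wt mDA neurons Scg2 (316 ± 54.1 CPM per kb, SD, n = 9) and Scg5 (307 ± 123) stood highest with overlapping ranges, followed by Cpe (184 ± 14.1), whose range overlapped that of Scg5 alone. Chga (88.0 ± 18.9), Pam (71.7 ± 11.5), Chgb (52.8 ± 13.2), Scg3 (41.7 ± 7.53) and Pcsk2 (38.0 ± 5.71) came next, all below every Cpe value and each overlapping its neighbours in that order. Vgf (12.97 ± 3.72) and Pcsk1 (6.10 ± 2.14) stood last, with no library reaching the lowest Pcsk2 value. In 4-month wt 5HT neurons Scg2 was again first (390 ± 83.4 CPM per kb, n = 4), but Chgb was the next (229 ± 37.8). The range of Chgb overlapped that of Scg5 (165 ± 31.7) and not that of Scg2. Pcsk1 (15.9 ± 6.20) and Pcsk2 (19.2 ± 5.09) had overlapping ranges there, whereas in mDA neurons every Pcsk2 value lay above every Pcsk1 value.

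**Figure D2:**
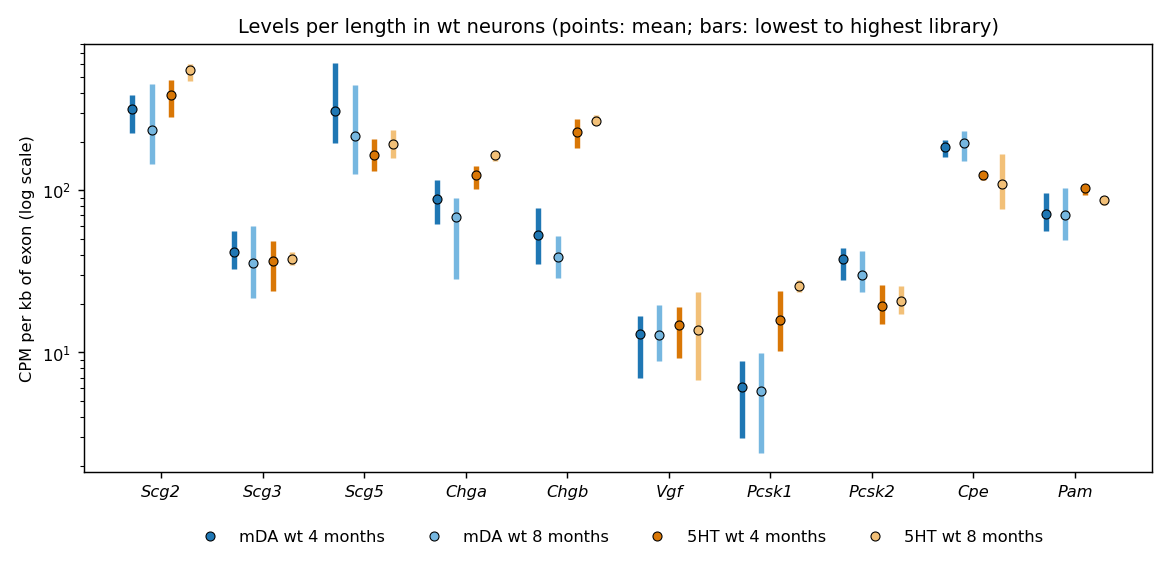
Levels per length in the 4 wt groups (y axis, CPM per kb of exon, log scale; x axis, the 10 genes). Points are means and bars run from the lowest to the highest library; Chgb and Pcsk1 are the 2 genes in which both 5HT groups lie above both mDA groups without overlap.

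Of the 10 genes, 7 differed between wt mDA and wt 5HT neurons in edgeR's quasi-likelihood test on 25 wt libraries (Benjamini-Hochberg adjusted p under 0.05 over all genes tested), against 21.7% of all 16178 genes. Lower in mDA were 5 genes (10.4% of all genes were). They were Chgb by a log2 fold change of -2.46 (SE 0.12, adjusted p = 2.56e-17), Pcsk1 by -1.70 (SE 0.20, adjusted p = 2.19e-08), Chga by -0.92 (adjusted p = 2.44e-06), Scg2 by -0.81 (adjusted p = 7.91e-05) and Pam by -0.46 (adjusted p = 0.00303). Higher in mDA were Pcsk2 by 0.74 (adjusted p = 4.64e-05) and Cpe by 0.71 (adjusted p = 1.97e-05), where 11.3% of all genes were higher. Scg3 (-0.01), Scg5 (0.39) and Vgf (-0.13) did not pass. At 4 months alone Chga (-0.53) and Scg2 (-0.31) no longer passed and Scg5 did (0.85), and at 8 months alone Pam (-0.33) and Pcsk2 (0.57) no longer passed. Cell type, mouse line and, in part, sequencing set cannot be told apart in this contrast, and with mDA set1 alone Pam did not pass (-0.31).

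The ratio of the 2 convertases put the same difference in 1 number per library, as CPM of Pcsk1 over CPM of Pcsk2, not corrected for length. It was 0.107 to 0.249 in wt mDA neurons at 4 months and 0.109 to 0.284 at 8 months. In wt 5HT neurons it was 0.486 to 1.69 at 4 months and 0.995 to 1.71 at 8 months, so no wt mDA library reached a wt 5HT library.

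In mDA neurons at 4 months, 2 of the 10 genes were lower in mutants and none higher, against 1.17% of 15425 genes in either direction and 0.596% in the lower direction. Fold changes were negative for 9 of 10 genes, with a median of -0.38 over the 10 and -0.01 over all genes tested. None of the 10 had groups without overlap, as 0.0778% of all genes had. All 10 genes passed the filter on low counts here and in every other comparison.

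Scg5, the 7B2 chaperone of PC2, was the gene that fell most. Its lowest, median and highest wt values were 236.8, 341 and 733 CPM, and those of mutants 73.0, 136 and 309 CPM. The groups overlapped, but 8 of 10 mutants lay below every wt animal. The log2 fold change was -1.13 (SE 0.21, edgeR adjusted p = 0.00335), a 2.19-fold decrease. It passed whichever animal was left out (-1.23 to -0.997). Pam, the amidating enzyme, was at 230, 288 and 393 CPM in wt and at 136, 178 and 307 CPM in mutants, with 7 of 10 mutants below every wt animal. Its log2 fold change was -0.49 (SE 0.12, edgeR adjusted p = 0.0262), and it missed the threshold when any of 10 animals was left out (wt D294, D296, C240, C241 and D942, mutants D186, D187, D192, D237 and D238; adjusted p up to 0.0791) and without the set term (-0.49, adjusted p = 0.0572).

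The other 8 genes did not pass in edgeR at 4 months, and DESeq2, which called 2.28% of all genes, called 1 of them, Pcsk2. Pcsk2, the convertase that Scg5 serves, had a log2 fold change of -0.53 (SE 0.14, edgeR adjusted p = 0.0566; DESeq2 -0.49, adjusted p = 0.0495), and 8 of 10 mutants lay below every wt animal. Scg2 was at -0.56 (SE 0.17, adjusted p = 0.0772), Chgb at -0.40, Scg3 at -0.36, Cpe at -0.33, Chga at -0.21 and Pcsk1 at -0.05. Vgf, a granin precursor regulated by neuronal activity, had the 1 positive value, 0.32 (adjusted p = 0.418). The mutants were spread widely in most of these genes: Scg2 ran from 269.1 to 1312 CPM in mutants and from 570 to 972 CPM in wt.

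That spread followed the 6 female mutants of low total count. They carried 269.1 to 359 CPM of Scg2, against 505 to 1312 CPM in the 4 male mutants and 570 to 972 CPM in all wt animals. Chgb was 34.8 to 87.9 CPM in the female mutants, below all 13 other animals (95.9 to 215 CPM). Pam showed the same split, 136 to 181 CPM against 227 to 307 CPM in the male mutants. Scg5 was 73.0 to 147.003 CPM in the female and 182 to 309 CPM in the male mutants, while wt males were at 280 to 733 CPM and wt females at 236.8 to 410 CPM. All 10 genes together took 0.0902% to 0.133% of the counts of the female mutants, 0.187% to 0.323% of those of the male mutants and 0.200% to 0.301% of those of wt animals. The lowest share outside the female mutants was thus above the highest share within them.

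**Figure D3:**
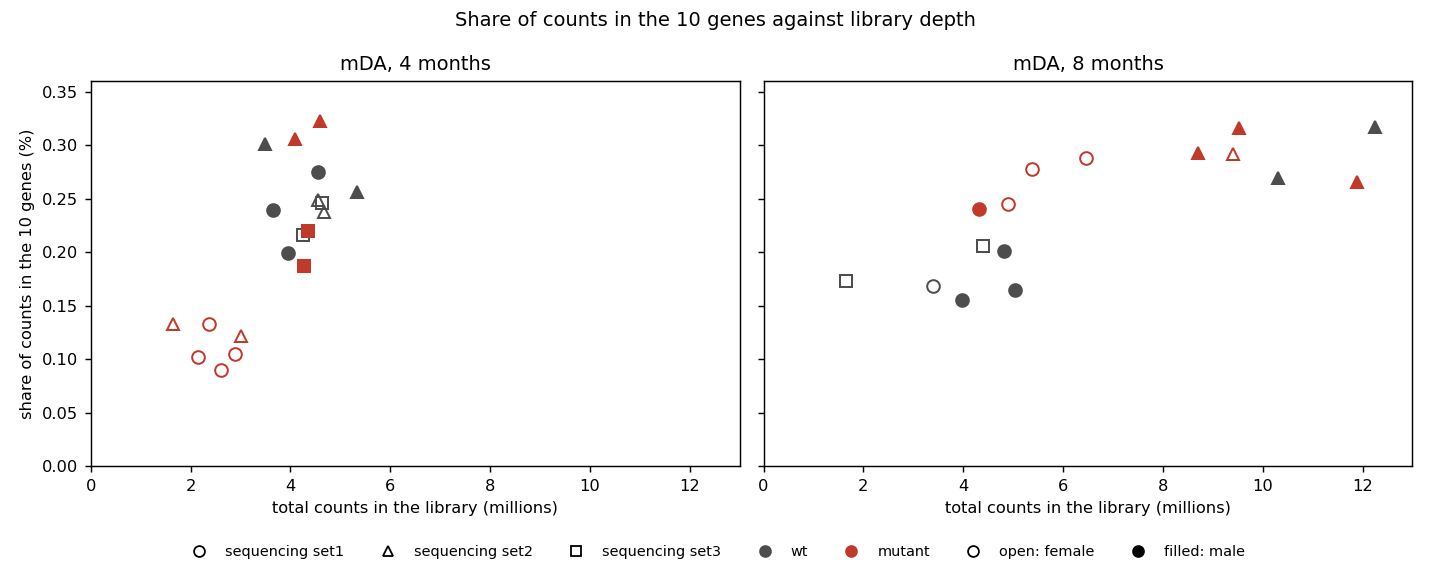
Share of counts in the 10 genes (y axis, percent) against total counts (x axis, linear, from 0) in mDA libraries at 4 months (left) and 8 months (right); symbols as in the plot of levels by group. The 6 female mutants at 4 months sit apart at the lower left, with 0.0902% to 0.133% of their counts in these genes. At 8 months the lowest total (1644460 counts) was that of 1 wt library, C250 of set3, with a share of 0.173%. The part of depth was not tested.

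Without these 6 libraries, an alternative chosen after the data were seen, none of the 10 genes passed in mDA at 4 months, and 0.0787% of all genes did. Scg5 was then at -0.63 (edgeR adjusted p = 0.660) and Pam at 0.05 (adjusted p = 0.974), and Scg2, Scg3, Chga and Chgb had small positive values (0.24 to 0.35). Without the 4 male mutants instead, 8 genes passed, all lower, with Scg2 at -1.38 and Chgb at -1.19, where 14.1% of all genes passed and 8.8% were lower. Within set1, where genotype and sex coincide, 7 passed, all lower, against 11.2% of all genes in either direction and 6.15% lower. Within set2 none of the 10 did (Scg5 -0.85, edgeR adjusted p = 0.880), and 0.0297% of all genes. A term for the genotype effect in females minus that in males, also added after the data were seen, passed for Scg2 (-1.82, SE 0.35, edgeR adjusted p = 0.00103), Chgb (-1.92, SE 0.40, adjusted p = 0.00241), Scg3 (-1.34, adjusted p = 0.0303) and Pcsk2 (-1.15, adjusted p = 0.0497), against 7.25% of all genes. For Scg5 it was -0.23 (adjusted p = 0.891). With set in the fit, this term was in effect estimated from set2 alone, which held 2 animals of each sex and genotype. The 4 female mutants of set1 had no female wt and no male mutant animals beside them in their set. Sex, total count and these particular libraries cannot be told apart.

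The same 6 libraries differed in other lists too. Summed dopaminergic markers (10 genes) were 4501 to 8324 CPM in them, 10236 to 12118 CPM in the male mutants and 6197 to 11871 CPM in wt. Astrocyte markers (15 genes) summed to 358 to 474 CPM in them and to 467 to 780 CPM in the other 13. Immediate early genes (17 genes) summed to 149 to 340 CPM in them, 99.5 to 177 CPM in the male mutants and 102 to 125 CPM in wt, and Nr4a1, Fosl2 and Egr1 of that list rose in mutants at 4 months. Microglia markers (11 genes) summed to 29.3 to 43.1 CPM in them and to 47.4 to 126 CPM in the other 13. None of the dopaminergic (10 tested), astrocyte (15) and microglia (8) markers passed between genotypes in edgeR at 4 months, and Gad1, 1 of 5 GABA neuron markers, was higher. Their part in the results was not tested.

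At 8 months the granule genes of mDA neurons stood the other way: 3 of 10 were higher in mutants and none lower, against 4.32% of all genes in either direction and 2.44% in the higher direction. Fold changes were positive for 8 of 10, with a median of 0.48 over the 10 and 0.02 over all genes tested. The genes that rose were 3 granins, Chga, Chgb and Scg3.

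Chga, the granin used most widely as a marker of dense-core granules (chromosome 12, 102554969 to 102565028, GRCm38), was at 53.4, 132 and 170 CPM (lowest, median, highest) in wt and at 238.01, 293 and 390 CPM in mutants. All 8 mutants lay above all 8 wt animals, which was so for 0.882% of genes, with 1.28% not overlapping in either direction. The log2 fold change was 1.20 (SE 0.17, edgeR adjusted p = 2.99e-06), a 2.30-fold increase, and it passed in each of the 16 fits that left out 1 animal (1.13 to 1.29). Within set1, in a fit without the sex term, it was 1.35. There the 4 mutants had 292 to 390 CPM and the 4 wt animals 111 to 133 CPM. Within set2 the 4 mutants (238.01 to 309 CPM) were also above the 2 wt animals (155 and 170 CPM), but 0.75 did not pass there (edgeR adjusted p = 0.133).

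Chgb, the second chromogranin, was at 79.5, 106 and 144 CPM in wt and at 122, 191 and 199 CPM in mutants, with 6 of 8 mutants above every wt animal. Its log2 fold change was 0.81 (SE 0.21, edgeR adjusted p = 0.0158), and it passed whichever animal was left out. Scg3, which tethers chromogranin aggregates to the granule membrane, was at 51.6, 74.1 and 145 CPM in wt and at 102, 128 and 155 CPM in mutants. Its groups overlapped through set2, whose 2 wt animals (136 and 145 CPM) stood at the level of the 4 set2 mutants (129 to 155 CPM). The log2 fold change of Scg3 was 0.66 (SE 0.19, edgeR adjusted p = 0.0385), and leaving out any of 7 animals (wt C45, C47, C49 and C51, mutants D265, D276 and D282) ended the call (adjusted p up to 0.106).

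The other 7 genes did not pass. Vgf was at 0.62 (SE 0.21, edgeR adjusted p = 0.0920), Scg2 at 0.49, Pcsk2 at 0.47, Scg5 at 0.44 and Cpe at 0.24, and in Scg2, Pcsk2, Scg5 and Vgf all 8 mutants lay above the wt median. Pam (-0.06) and Pcsk1 (-0.01) had values near 0, with intervals of -0.34 to 0.22 and -0.60 to 0.59. Scg5 differed by set within wt animals: 517 and 539 CPM in set2, against 153 to 211 CPM in the other 6.

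**Figure D4:**
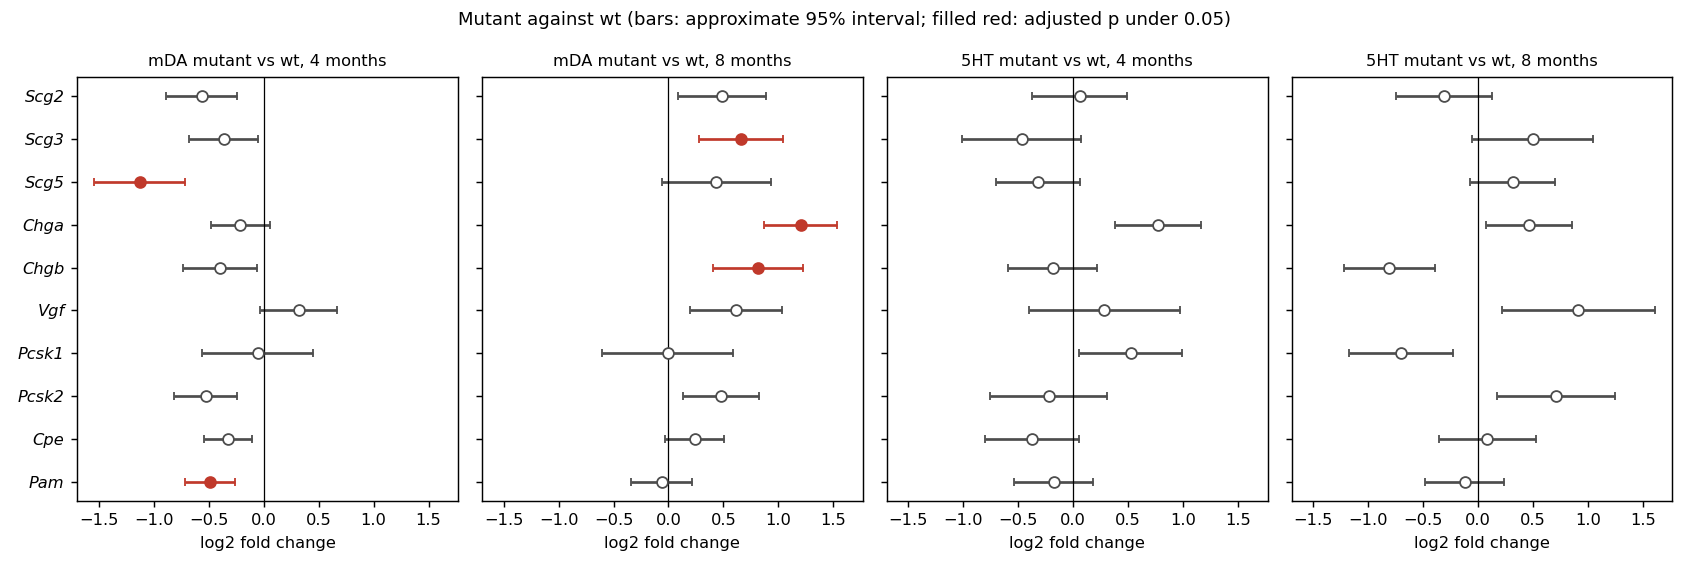
Log2 fold change of mutant against wt (x axis) for the 10 genes (y axis) in the 4 genotype comparisons. Bars are approximate 95% intervals and filled red points passed at an adjusted p under 0.05: Scg5 and Pam in mDA at 4 months, Scg3, Chga and Chgb in mDA at 8 months, and none in 5HT neurons.

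These 3 calls rested on the terms of the fit to different degrees. The 2 wt animals of set3 have no mutants beside them, so with the set term they do not inform this estimate. Without the sex term Chga passed (1.11) and Chgb (0.67, edgeR adjusted p = 0.100) and Scg3 (0.45, adjusted p = 0.382) did not, where 2.55% of all genes passed. Scg3 also missed the threshold without the set term (0.62, adjusted p = 0.0694) and with the 8-month libraries alone (0.44, adjusted p = 0.236). The fits within a single set had no sex term. At 8 months set1 held 3 female and 1 male mutants and 1 female and 3 male wt animals, so genotype and sex were in part confounded. Within set1 7 genes passed, all higher (Chga, Chgb, Scg2, Scg3, Scg5, Pcsk2 and Vgf), against 5.43% of all genes in either direction and 3.29% higher. Within set2, with 2 wt animals, none did, and 0.334% of all genes. There Scg2 (-0.21), Scg3 (-0.03) and Scg5 (-0.47) had negative values.

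At 8 months the mDA groups also differed in cell type markers. Of 10 dopaminergic markers 9 were lower in mutants, and their sum was 3617 to 4910 CPM in mutants and 5869 to 10955 CPM in wt. Of 5 GABA neuron markers 4 were higher, with sums of 678 to 974 CPM and 247 to 495 CPM. Of 15 astrocyte markers 3 were higher (Agt, Apoe and Slc1a2), and their sum was 423 to 831 CPM in wt and 568.2 to 2870 CPM in mutants, highest in D161 (1337 CPM), D170 (1362 CPM) and D176 (2870 CPM). Chga was highest in D265, the mutant with the lowest astrocyte sum, and lowest of the mutants in D176, the one with the highest. D265 belonged to set1 and D176 to set2, so this contrast cannot be told apart from set. Chga was 292 to 390 CPM in set1 mutants and 238.01 to 309 CPM in set2 mutants. Of 13 endothelial and mural markers 2 were higher, and they summed to 11.3 to 1144 CPM in mutants and 11.8 to 65.7 CPM in wt, with Cldn5 at 0 in 1 mutant and 2 wt libraries. Immediate early genes summed to 211 to 359 CPM in mutants and 88.0 to 156 CPM in wt, with 5 of 13 tested genes higher (Nr4a1, Egr1, Fos, Dusp1 and Arc). Their part in the rise of the granins was not tested.

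The difference between the 2 ages was tested as its own contrast in the mDA fit. The genotype effect at 8 months exceeded that at 4 months in 7 of 10 genes, against 6.11% of all genes in either direction and 3.76% in the higher direction. The differences were 1.57 for Scg5 (SE 0.33, edgeR adjusted p = 0.00410), 1.42 for Chga (SE 0.21, adjusted p = 4.07e-05), 1.21 for Chgb, 1.05 for Scg2, 1.03 for Scg3, 1.003 for Pcsk2 and 0.57 for Cpe. Pam (0.43), Vgf (0.30) and Pcsk1 (0.05) did not pass. Cpe lost its call with RLE scaling (0.52, edgeR adjusted p = 0.0591) and without the set term (0.50, adjusted p = 0.120), and without the sex term Cpe, Scg2, Scg3 and Chgb did (Chgb 1.08, adjusted p = 0.0504). Without the 6 female 4-month mutants none of the 10 passed (0.103% of all genes did) and the values were 0.90 for Scg5, 0.80 for Chga, 0.27 for Chgb and -0.01 for Scg2. Without the 4 set1 mutants of 4 months Chga alone passed (1.29, edgeR adjusted p = 0.0128), against 0.565% of all genes. The values of the genes that no longer passed were then 1.42 for Scg5 (adjusted p = 0.0823), 1.03 for Chgb, 0.89 for Scg3, 0.83 for Scg2, 0.77 for Pcsk2 and 0.27 for Cpe.

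Markers of other cells differed in the same contrast. Of 15 oligodendrocyte markers 6 passed, all higher, with a median of 0.82 over the list and 0.02 over all genes. Of 15 astrocyte markers 4 passed, all higher (median 1.26), and of 5 GABA neuron markers 4 did (median 1.95). None of 13 endothelial and mural markers passed in edgeR (median 1.05). Of 10 dopaminergic markers 5 passed, all lower (median -0.94). Their part in the difference between ages was not tested.

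Within 1 genotype the ages were compared with the set label shared over ages, although a set label may not stand for the same run at both. In wt mDA animals none of the 10 genes differed between 8 and 4 months in edgeR, and 0% of all genes did. At an unadjusted p under 0.05 there were 2, against 7.81% of all genes. In mDA mutants 8 of 10 were higher at 8 months, all but Pcsk1 and Vgf, against 7.37% of all genes in either direction and 4.73% in the higher direction. In the same contrast 5 of 15 astrocyte, 2 of 15 oligodendrocyte and 4 of 5 GABA neuron markers were higher, and 6 of 10 dopaminergic markers were lower. None of 13 endothelial and mural markers passed in edgeR, although all 13 had positive values (median 1.69). Their part in the change was not tested. Without the 6 female 4-month mutants none of the 10 genes passed, and 3.36% of all genes did.

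In 5HT neurons none of the 10 genes passed in edgeR at 4 months, where 0.0128% of 15633 genes did. At an unadjusted p under 0.05 there were 2, Chga and Pcsk1, against 6.4% of all genes. DESeq2 called Chga, and 0.307% of all genes. Chga was 193, 234, 248.04 and 267 CPM in the 4 wt animals and 302, 318, 386 and 601 CPM in the 4 mutants. Every mutant lay above every wt animal, with a log2 fold change of 0.77 (SE 0.20, edgeR adjusted p = 0.397; DESeq2 0.80, adjusted p = 0.0410). Cpe was the other gene of the 10 whose groups did not overlap (161.5 to 242 CPM in mutants and 245 to 280 CPM in wt), and 2.73% of all genes had groups without overlap. Its log2 fold change was -0.38 (edgeR adjusted p = 0.858).

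At 8 months in 5HT neurons none of the 10 passed in edgeR either, where 0.397% of all genes did. At an unadjusted p under 0.05 there were 5 of 10, against 4.9% of all genes. DESeq2 called 1, Chgb, and 1.13% of all genes. Groups did not overlap in 5 genes, Chgb, Pcsk1, Pcsk2, Chga and Scg3, against 6.52% of all genes.

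Chgb and Pcsk1 were the 2 of these that stood lower in mutants. Chgb was 697, 727, 730 and 800 CPM in wt and 337, 368, 462 and 537 CPM in mutants (log2 fold change -0.81, SE 0.21, edgeR adjusted p = 0.134; DESeq2 -0.79, adjusted p = 0.0122). Pcsk1, the convertase that acts early in the secretory route, was 119, 121, 137 and 141 CPM in wt and 70.1, 75.9, 76.7 and 90.7 CPM in mutants (-0.70, SE 0.24, edgeR adjusted p = 0.452). The other convertase stood the other way: Pcsk2 was 82.1, 83.0, 107.4 and 121 CPM in wt and 137, 155, 160.9 and 193 CPM in mutants (0.71, SE 0.28, edgeR adjusted p = 0.674). At 8 months the ratio of Pcsk1 to Pcsk2 was accordingly 0.393 to 0.661 in mutants, below every wt animal (0.995 to 1.71). At 4 months it was 1.01 to 2.93 in mutants and 0.486 to 1.69 in wt animals, with overlap. In mDA neurons the ratio overlapped between genotypes at both ages (at 8 months, 0.0895 to 0.210 in mutants against 0.109 to 0.284 in wt).

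Chga and Scg3 stood higher in the 8-month 5HT mutants. Chga was 285, 308, 316 and 328 CPM in wt and 352, 415, 427.1 and 430 CPM in mutants (0.46, SE 0.20, edgeR adjusted p = 0.903). Scg3 was 83.1, 85.6, 93.3 and 99.3 CPM in wt and 117, 126, 130 and 148 CPM in mutants (0.50, SE 0.28, edgeR adjusted p = 0.9997). Vgf had the largest positive value, 0.91 (SE 0.36, adjusted p = 0.693), with 3 of 4 mutants above every wt animal. When the 8-month libraries were fitted alone, Chgb (-0.77), Pcsk1 (-0.75) and Pcsk2 (0.79) passed (edgeR adjusted p = 0.0201, 0.0345 and 0.0316), against 1.43% of all genes.

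At 8 months the 5HT groups differed in markers too. Serotonergic markers (10 genes) summed to 1260 to 1666 CPM in mutants and 5520 to 7143 CPM in wt, with 4 of 10 lower, and GABA neuron markers summed to 661 to 758 CPM and 268 to 392.1 CPM, with 2 of 5 higher. None of 11 microglia and 15 astrocyte markers passed. Microglia markers summed to 77.7 to 96.7 CPM in mutants and 119 to 186.2 CPM in wt, and astrocyte markers to 705 to 805 CPM and 664 to 1041 CPM. Immediate early genes summed to 191 to 372 CPM and 85.4 to 167 CPM. Their part in these values was not tested.

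The effect of age on the genotype effect in 5HT neurons passed in none of the 10 genes, by edgeR or DESeq2. In edgeR 0.0128% of all genes passed. At an unadjusted p under 0.05 there were 5 of the 10, against 3.97% of all genes. Pcsk1 had the largest difference, -1.22 (SE 0.33, adjusted p = 0.560). Between 8 and 4 months none of the 10 differed in 5HT wt animals (0% of all genes called) or in 5HT mutants (0.243% of all genes called). At an unadjusted p under 0.05 there were 2 in wt, against 6.17% of all genes, and 4 in mutants, against 9.15%. Only 4 animals per group stood behind each value.

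The genotype effects of the 2 cell types were compared in a fit of all 51 libraries. At 8 months Chgb was the 1 gene of the 10 whose effect differed, against 0.179% of 18386 genes in either direction and 0.0544% in the higher direction. The effect in mDA minus that in 5HT neurons was 1.64 (SE 0.34, edgeR adjusted p = 0.0176), Chgb being higher in mDA mutants and standing lower in 5HT mutants. With only set1 of mDA at 8 months, chosen after the data were seen, it was 1.88 (SE 0.38, adjusted p = 0.0161). For Chga, higher or standing higher in both, the difference was 0.79 (interval 0.22 to 1.35, adjusted p = 0.453). At 4 months none of the 10 passed in edgeR, where 0.0925% of all genes did, and Chga came nearest at -1.03 (SE 0.27, adjusted p = 0.0994). At an unadjusted p under 0.05 there were 2 at that age, against 9.46% of all genes.

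Other genes of the granule pathway were counted from lists, by the same fits. The shares of all genes to read them against in mDA neurons at 8 months are 2.44% higher and 1.88% lower, and 0.596% lower at 4 months. Among 16 tested proteases and inhibitors of granule cargo, 3 rose in mDA mutants at 8 months: Mme (neprilysin, which degrades peptides outside cells; log2 fold change 2.72, edgeR adjusted p = 0.0156), Ctsl (cathepsin L; 0.86, adjusted p = 0.0117) and Pcsk1n (proSAAS, an inhibitor of PC1/3; 0.72, adjusted p = 0.0394). Qpctl, which forms pyroglutamate at peptide ends, fell at 4 months (-0.76, adjusted p = 0.0450). The median of this list was 0.23 at 8 months and -0.19 at 4 months.

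Among 34 genes of granule biogenesis and trafficking, Bsg (0.91) and Atp6ap2 (0.79), an accessory subunit of the proton pump that acidifies granules, rose at 8 months in mDA mutants, and none fell. Of 33 genes of docking and release, 3 fell at 8 months and none rose: Cplx1 (complexin, -1.01, edgeR adjusted p = 1.48e-04), Cadps2 (a priming factor of dense-core granules, -0.83, adjusted p = 7.00e-04) and Unc13b (a priming factor of vesicles, -0.71). The medians of these 2 lists at 8 months were 0.02 and -0.07. At 4 months none of either list passed in edgeR in mDA neurons, and none passed at either age in 5HT neurons.

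Of 56 listed peptide precursor genes 33 were tested in mDA neurons, and at 8 months Igf2 rose (2.76, edgeR adjusted p = 0.0136) and Igf1 fell (-1.23, adjusted p = 4.82e-06), 2 of 33 against 4.32% of all genes. In 5HT neurons 28 were tested, and Adcyap1, the precursor of PACAP, rose at 8 months (1.68, adjusted p = 0.0130), where 0.397% of all genes passed. None of the listed regulators of granule genes passed between genotypes in edgeR (16 tested in mDA, 15 in 5HT neurons). In wt neurons 10 of 39 tested precursors were higher and 3 lower in mDA than in 5HT neurons, against 11.3% and 10.4% of all genes, among them Grp (5.16) and Cck (5.04) higher and Pdyn (-2.12) and Trh (-2.37) lower. Insm1, a zinc finger regulator of neuroendocrine genes, was higher in wt mDA neurons by 7.22 (adjusted p = 1.65e-09).

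By the median over gene pairs, the 10 genes moved together from library to library more in mDA than in 5HT neurons. This is a description without a test, since libraries share depth and cell makeup. After the mean of each group and set was subtracted from log2(CPM + 1), the median correlation over gene pairs was 0.51 over 35 mDA libraries and 0.16 over 16 5HT libraries. The subtraction leaves the split between female and male mutants of set2 at 4 months in the mDA value (Scg2 269.1 to 1312 CPM in that set). The part of that split was not tested. In mDA neurons Scg3 with Chgb, Scg2 with Pam and Scg2 with Scg3 were the closest pairs (r = 0.79 each), and Scg3 with Vgf the farthest (r = -0.11). The closest pairs in 5HT neurons were closer still: Scg2 with Chgb (r = 0.88), Chgb with Pam (0.84) and Scg2 with Pam (0.82). The farthest there was Chga with Pcsk2 (r = -0.56). Across the 35 mDA libraries without that subtraction, the gene outside the 10 most like Scg2 was Tspan3 (r = 0.95), most like Scg3 was Ctsd (0.93), most like Chgb was Psap (0.91) and most like Chga was Wnt5a (0.90). For Pcsk2 it was Tmem59 (0.90), for Cpe Atp5g3 (0.89), for Pam Erp29 (0.86), for Scg5 Scamp5 (0.82), for Pcsk1 Fez1 (0.81) and for Vgf Ppp1r1b (0.70).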

How the data were processed

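The authors deposited raw read counts per gene for 51 libraries. Per the submitters' processing notes the aligner was STAR 2.7.0a and the build mm10 (GRCm38). Which tool counted the reads, and whether strand was used, is not given in the sources used here. The counts carry no molecular tags, as is usual for Smart-seq2. No column was unused or a copy of another. A reporter row, mcherry, was left out (at most 0.00294% of counts). Group, sex, age and set are those of the labels, with separate animals as replicates.

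The 13 comparisons used the robust quasi-likelihood test of edgeR 4.0.16 (R 4.3.3). Library sizes were TMM-scaled, low genes were dropped by filterByExpr (groups given, minimum count 10), and p-values were Benjamini-Hochberg adjusted over all genes tested and called under 0.05. The mDA fit held 35 libraries with set within age and sex as terms, the 5HT fit 16 libraries with sex, the wt fit 25 libraries with sex, and the fit of both cell types 51 libraries. SE is the absolute log2 fold change over the square root of F and is approximate, and 95% intervals are built from it by the normal distribution. DESeq2 1.42.0, RLE scaling, no filter, other terms, single sets or ages and leaving out each animal were alternatives, and 7 more were added after the data were seen. The fits within a single set held neither the set nor the sex term. The scripts were tested on simulated data.

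The 10 genes and the lists were chosen with earlier results of these data known. Named genes were the 10, up to 4 called genes per list, direction and genotype comparison, and the gene most correlated with each of the 10. Cck, Grp, Pdyn, Trh and Insm1 were named after their values were seen. Gene lengths and positions are from GENCODE M21 (GRCm38), by the RefSeq accessions of the table. A list of 13 mitochondrially encoded genes matched 0 symbols and was not used.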

Additional observations from a re-analysis of the deposited data

Results flagged for a closer look

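In mDA neurons the genotype effect differed between 8 and 4 months, by a test of the difference itself, in 7 of the 10 genes: Scg5 (1.57 on the log2 scale), Chga (1.42), Chgb (1.21), Scg2 (1.05), Scg3 (1.03), Pcsk2 (1.003) and Cpe (0.57). None of these passed without the 6 female 4-month mutants. The genotype effect at 4 months differed between females and males in Chgb (-1.92), Scg2 (-1.82), Scg3 (-1.34) and Pcsk2 (-1.15), a term that in effect rested on the animals of set2. At 8 months it differed between mDA and 5HT neurons in Chgb (1.64).

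In 3 of 80 combinations of gene and group 1 library stood far from the rest, where chance gives about 1 in 20. Scg5 was 733 CPM in wt mDA animal D878 at 4 months, against 410 CPM in the next. Vgf was 89.5 CPM in mDA mutant D170 at 8 months, against 51.8 CPM in the next, and 71.9 CPM in mDA mutant D187 at 4 months, against 48.8 CPM.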

How the results depend on the processing

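Shares below are percent of the genes tested that were called, and counts are of the 10 genes. In mDA at 4 months 2 genes were called (1.17%), and 1 without the set term (0.370%), 7 within set1 (11.2%), 0 within set2 (0.0297%), 0 without the 4 set1 mutants (0.127%), 0 without the 6 female mutants (0.0787%), 8 without the 4 male mutants (14.1%) and 1 to 5 when 1 animal was left out (0.509% to 3.15%). The share was 2.28% with DESeq2 and 0.539% with no filter, which tests more genes. Without the 6 females the log2 fold change was positive in Scg2 (0.24), Scg3 (0.27), Chga (0.27), Chgb (0.35), Pcsk1 (0.23), Pcsk2 (0.059), Cpe (0.037) and Pam (0.048). Pcsk1 was positive within set1 (0.11) and ran from -0.19 to 0.069 with 1 animal left out. In mDA at 8 months 3 genes were called (4.32%), and 1 without the sex term (2.55%), 7 within set1 and 0 within set2 (0.334%). The share was 2.74% with that age alone and 6.87% with DESeq2. Signs changed within set2 in Scg2 (-0.21), Scg3 (-0.028) and Scg5 (-0.47) and within set1 in Pcsk1 (0.39) and Pam (0.032), and with 1 animal left out Pcsk1 (-0.19 to 0.19) and Pam (-0.13 to 0.037) crossed 0. Of the 7 genes with a difference between ages (6.11%), 3 were called without the sex term (0.998%), 0 without the 6 females (0.103%) and 1 without the 4 set1 mutants (0.565%), and the share was 3.99% without the set term and 3.58% with no filter. There Scg2 (-0.013), Pcsk1 (-0.29) and Pam (-0.25) were negative without the 6 females, and Pcsk1 with RLE scaling (-0.0026). In mDA mutants between ages 0 genes were called without the 6 females (3.36%), with Scg2 (-0.29), Chgb (-0.18) and Pcsk1 (-0.41) negative, as was Pcsk1 with RLE scaling (-0.018). In 5HT at 4 months (0 genes, 0.0128%) DESeq2 called 1 (0.307%), and the share was 0.0508% with no filter, 0% with that age alone and 0% to 0.0249% with 1 animal left out, when Pcsk2 (-0.46 to 0.019) and Scg2 (-0.088 to 0.27) crossed 0. In 5HT at 8 months (0 genes, 0.397%) DESeq2 called 1 (1.13%) and that age alone 3 (1.43%), and with 1 animal left out the share was 0.183% to 0.299%, with Cpe at -0.093 to 0.33. The share for the 5HT difference between ages was 0.0212% with no filter and 0.179% with DESeq2, and for 5HT wt between ages 0.00847% with no filter. Chga in 5HT mutants between ages was negative with RLE scaling (-0.024). For the difference between cell types the share was 0.0375% at 4 months with no filter, where Vgf was positive (0.014, and 0.050 with RLE scaling), and 0.0735% at 8 months with mDA set1 alone, where Pcsk2 was positive (0.085). Between wt cell types it was 11% at 4 months alone and 12.6% with mDA set1 alone, and signs changed in Scg3 (0.019 with RLE scaling, 0.020 with DESeq2, 0.16 at 4 months) and at 8 months in Scg5 (-0.12) and Vgf (0.16). Other than for the filter, the cause was not tested. Chga in mDA at 8 months kept its sign in every alternative run and missed the threshold within set2 alone. No paired analysis was possible because the replicate labels are animal numbers that no groups share.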
